A study of Homo sapiens with 11 samples.

Results

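Krüppel-like factors (KLFs) are DNA-binding proteins that were followed here as transcripts of 9 genes, KLF2, KLF3, KLF4, KLF6, KLF7, KLF9, KLF10, KLF11 and KLF13, found by symbol among the 38557 annotated genes of a count table from a leukemia cell line. The set was chosen by the level of KLF2, whose rise when PR-957 was added to MI-503 was among the largest of all genes. The contrast that chose it is therefore given below as values, with no test, for all 9 genes. KLF2 also has no test in the comparison of the combined treatment with the solvent, which uses the same libraries. All 9 genes passed the filter on low counts, which kept 14683 genes, and the lowest count of a member in any library was 126 fragments (KLF2, MI-503 replicate 1).

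KLFs share a C-terminal block of zinc fingers that reads GC-rich and CACCC-type DNA, a property they have in common with the SP factors of the same family. They differ in the N-terminal part, which recruits partner proteins, and this part sorts the 9 genes into groups. KLF2, KLF4, KLF6 and KLF7 act mainly as activators, KLF3 is a repressor that binds the corepressor CtBP, and KLF9, KLF10, KLF11 and KLF13 bind the corepressor SIN3A. In blood cells KLF2 is known for holding T cells and monocytes in a resting state and KLF4 for driving monocyte differentiation, and several KLF proteins are short-lived and removed by the proteasome.

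The cells were MOLM-13, a human acute myeloid leukemia line with a KMT2A rearrangement, kept for 72 h in DMSO, the solvent (4 libraries), in MI-503, an inhibitor of the KMT2A partner Menin, at 1 µM (4 libraries), or in that dose of MI-503 together with PR-957 at 100 nM, also called ONX-0914, an inhibitor of the immunoproteasome subunit PSMB8 (3 libraries, replicates 1, 2 and 4). MI-503 with PR-957 is named the combination below. MI-503 was thus present in both treated groups, and PR-957 alone is not analysed here. All libraries came from 1 cell line, and the labels do not say whether replicates were separate cultures, so p-values measure the spread between these libraries, which may be technical.

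Libraries held 18891243 to 41153974 counted fragments. Levels are given as CPM, the count of a gene scaled to a common library size, after TMM normalization, which corrects for differences in library make-up. Of 10 myeloid and monocytic markers, 9 had a mean of at least 1 CPM in each group, while CD14 stayed at or below 0.484 CPM in all 11 libraries. The summed level of these markers ran from 1690 to 1760 CPM in DMSO, from 2230 to 2390 CPM in MI-503 and from 2410 to 4660 CPM in the combination. Combination replicate 1 was the low library there, with LYZ, a lysozyme of monocytes, at 599 CPM against 1810 and 2510 CPM in replicates 2 and 4. Defining markers of other blood lineages were near 0 (CD2 and MS4A1 at 0 in every library), apart from CD4 (197 to 293 CPM) and PAX5 (22.5 to 48.6 CPM). The markers did not all move the same way. Mean LYZ was 95.2, 376 and 1640 CPM in DMSO, MI-503 and the combination. The means of SPI1, CEBPA, CSF1R and ITGAM also rose at each step. FLT3 fell at each step (324, 230 and 193 CPM). MPO (114, 216 and 130 CPM), CD33 and PTPRC had their highest means with MI-503 alone. The part of these marker changes in the KLF values was not tested. In bulk RNA, fewer expressing cells and less RNA per cell cannot be told apart.

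The stretch just before the transcript start is shown for KLF2, because it carries the largest change, for KLF4, its close relative that changed otherwise, and for KLF13, the member with the largest tested rise under MI-503 alone. Each line gives 250 bases before the start, 5′ to 3′ on the gene's strand, from RefSeq (GRCh38.p14), at chr19:16324576-16324825 (plus strand), chr9:107489770-107490019 (minus strand) and chr15:31326585-31326834 (plus strand). Capitals mark the MEF2 core (CTA, any 4 bases, TAG) and the GC box GGGCGG, read on both strands.
KLF2: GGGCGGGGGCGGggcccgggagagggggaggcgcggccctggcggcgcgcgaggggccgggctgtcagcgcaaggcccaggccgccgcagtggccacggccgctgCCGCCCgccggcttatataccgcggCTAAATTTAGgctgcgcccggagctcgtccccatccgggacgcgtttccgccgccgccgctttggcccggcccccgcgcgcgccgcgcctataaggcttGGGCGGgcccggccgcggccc
KLF4: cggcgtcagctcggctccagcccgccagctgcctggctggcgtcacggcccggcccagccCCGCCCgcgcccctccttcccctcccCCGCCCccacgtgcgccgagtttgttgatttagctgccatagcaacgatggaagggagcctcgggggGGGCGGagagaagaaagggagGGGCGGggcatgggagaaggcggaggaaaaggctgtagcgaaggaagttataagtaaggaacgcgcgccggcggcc
KLF13: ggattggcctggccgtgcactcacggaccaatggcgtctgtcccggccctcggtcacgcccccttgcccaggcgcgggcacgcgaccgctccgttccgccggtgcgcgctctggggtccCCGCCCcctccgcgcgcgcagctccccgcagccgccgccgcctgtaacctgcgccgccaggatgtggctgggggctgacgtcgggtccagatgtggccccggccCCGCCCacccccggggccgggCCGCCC

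The table of promoters held 7 of the 9 members, and KLF3 and KLF10 had no entry. For KLF6, KLF7 and KLF11 its start differed from the outermost start in the annotation used for counting. The stretches of KLF7 (chr2:207167247-207167496) and KLF11 (chr2:10043579-10043828) lay wholly inside the annotated gene. That of KLF6 (chr10:3785210-3785459) lay partly inside. Matches in these genes are therefore not placed before the annotated gene as a whole. The MEF2 core was found in the KLF2 stretch alone among these 7, as CTAAATTTAG from 120 to 111 bases before the start, and in 2.36% of the 35116 promoters of the table. MEF2 factors, which read this core, are the known switch of KLF2 and KLF4 below the kinase ERK5. The GC box, the type of site that KLF and SP proteins bind, occurred 4 times in KLF2, 4 times in KLF4, 3 times in KLF13 and in 42.6% of all promoters. The CACCC box (CACCC, 54.7% of promoters) was found once in KLF7 and once in KLF13. The E-box CACGTG (6.34%) was found once each in KLF4, KLF6 and KLF11, and the heat shock element core GAANNTTC (5.78%) once in KLF7. The antioxidant response core TGACNNNGC (10.9%) and the cyclic AMP response element TGACGTCA (1.65%) were found in none of the 7. A match describes letters in these windows and shows no binding.

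MI-503 alone raised most of these genes a little. Against DMSO, 6 of the 9 rose (KLF3, KLF4, KLF6, KLF7, KLF10 and KLF13), by 1.22- to 1.72-fold. Across all genes tested, 22.0% were called higher and 29.3% lower at an edgeR quasi-likelihood adjusted p under 0.05. No member was called lower (0 by edgeR, also at an unadjusted p under 0.05, by DESeq2 and by limma-voom). The members' median log2 fold change was 0.29, beside -0.028 over all genes tested. The MI-503 libraries are also part of the contrast that chose KLF2.

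With PR-957 on top, the picture split by gene. Against DMSO, 6 of the 8 members other than KLF2 rose (KLF3, KLF4, KLF6, KLF7, KLF10 and KLF13), KLF11 fell and KLF9 was not called. The background was 31.7% of genes called higher and 32.8% called lower. This comparison shares its DMSO libraries with the one above.

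The combination and MI-503 are compared without a test. KLF6, KLF7 and KLF10 lay higher in every combination library, and 2 members lay lower (KLF4 and KLF11). KLF2 also lay higher, but it was chosen on this contrast and is not set beside the shares that follow. Of all genes tested, 23.8% had every combination library above every MI-503 library and 23.7% had every one below. The edgeR test called 23.6% of genes higher and 23.8% lower in this contrast.

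**Figure D1:**
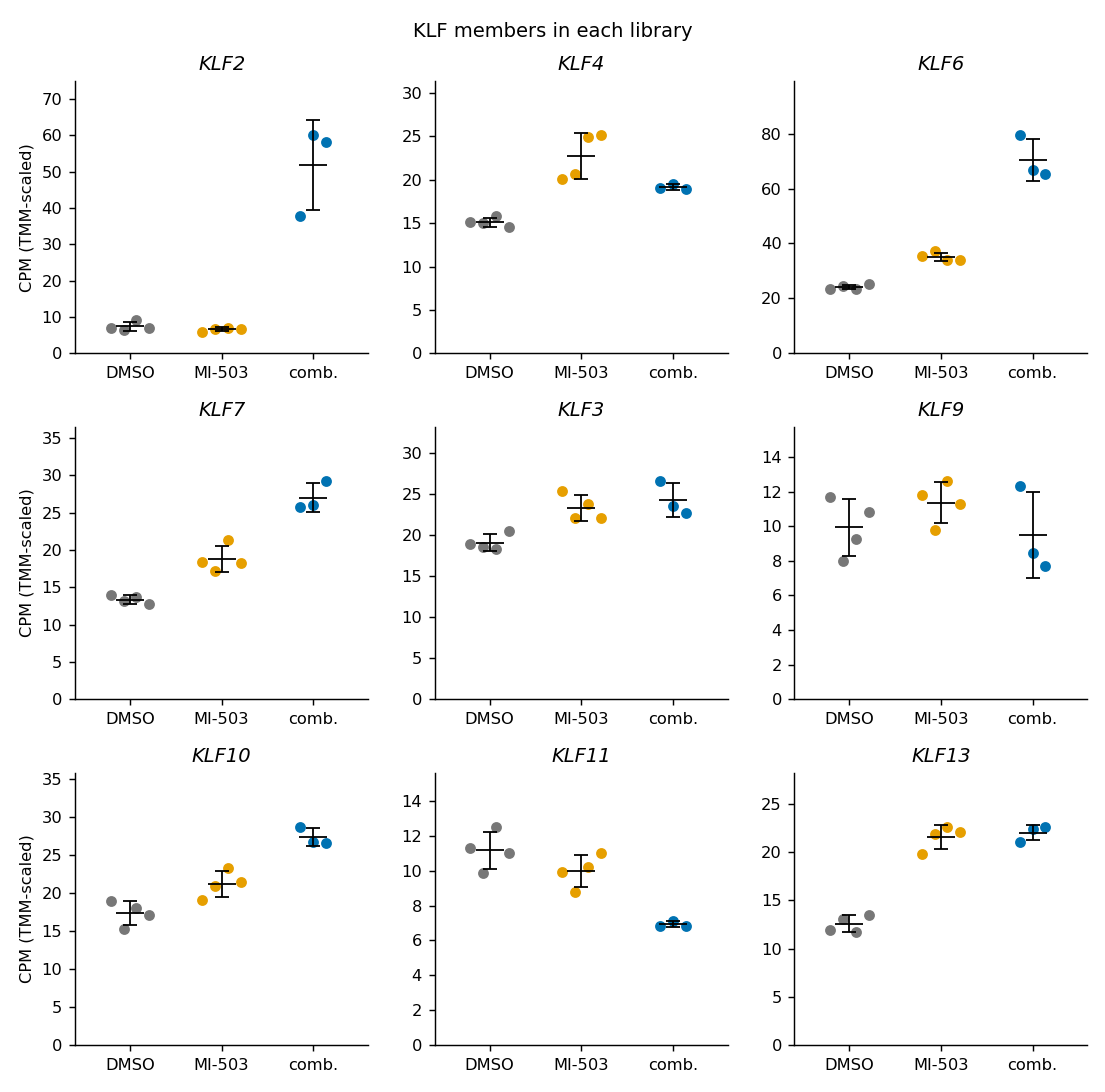
TMM-scaled CPM (y axis, from 0) of each KLF member in the DMSO, MI-503 and combination (comb.) libraries, 1 point per library, with mean and SD as bars. KLF2 is flat between DMSO and MI-503 and lies between 37.7 and 60.0 CPM in the combination, whereas KLF13 is already at 19.8 to 22.6 CPM with MI-503 alone.

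Among the activators, KLF2 (chr19:16324826-16328685) had 7.05, 6.34, 9.15 and 7.07 CPM in DMSO replicates 1 to 4, 5.83, 6.80, 7.10 and 6.75 CPM in MI-503, and 37.7, 60.0 and 58.2 CPM in the combination. MI-503 alone gave a log2 fold change of -0.15 (95% interval -0.49 to 0.19, adjusted p = 0.457), with overlapping groups. The combination libraries were far above all others, with replicate 1 the lowest of the 3. The fitted fold was 7.76 against MI-503 (log2 2.96) and 6.98 against DMSO (log2 2.8). This rise over MI-503 ranked at place 4 among the 10041 genes that averaged 5 CPM or more, and at place 39 among all 14683. Without combination replicate 1 the log2 fold change over MI-503 was 3.12.

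KLF4 (chr9:107484852-107489769), the monocyte differentiation factor and relative of KLF2, followed another course. It had 15.1, 15.0, 15.8 and 14.5 CPM in DMSO, 20.1, 20.7, 24.9 and 25.1 CPM in MI-503, and 19.0, 19.5 and 18.9 CPM in the combination. MI-503 raised it 1.5-fold (log2 0.59, SE 0.08, adjusted p = 6.44e-06). In the combination it was still above DMSO (1.27-fold, log2 0.34, SE 0.08, adjusted p = 0.0015). All 3 combination libraries lay below all 4 MI-503 libraries, at a log2 difference of -0.25.

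KLF6 (chr10:3775996-3785281), a widely expressed early-response factor and tumor suppressor, rose in steps. DMSO libraries had 23.4, 24.5, 23.5 and 25.2 CPM, MI-503 libraries 35.5, 37.1, 34.0 and 33.9 CPM, and combination libraries 79.3, 66.8 and 65.4 CPM. The 3 groups did not overlap, and here combination replicate 1 was the highest. The rise over DMSO was 1.46-fold with MI-503 (log2 0.54, SE 0.06, adjusted p = 2.6e-06) and 2.93-fold in the combination (log2 1.55, SE 0.07, adjusted p = 6.68e-12). The combination was 2.01-fold above MI-503 (log2 1.01), and 0.88 on the log2 scale without its replicate 1.

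KLF7 (chr2:207074137-207173851), the closest relative of KLF6, showed the same order at a smaller scale. It had 13.9, 13.1, 13.7 and 12.7 CPM in DMSO, 18.4, 17.2, 21.3 and 18.3 CPM in MI-503, and 25.7, 26.0 and 29.2 CPM in the combination, again with no overlap between groups. The fold over DMSO was 1.4 with MI-503 (log2 0.49, SE 0.08, adjusted p = 4.36e-05) and 2.01 in the combination (log2 1.01, SE 0.08, adjusted p = 6.11e-09). Over MI-503 the combination was 1.44-fold higher.

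The CtBP-binding repressor KLF3 (chr4:38664079-38701517) rose with MI-503 and changed little further. It had 18.9, 18.5, 18.3 and 20.5 CPM in DMSO, 25.3, 22.0, 23.7 and 22.0 CPM in MI-503, and 26.5, 23.5 and 22.6 CPM in the combination. Both treated groups lay above DMSO, by 1.22-fold with MI-503 (log2 0.29, SE 0.07, adjusted p = 0.00232) and 1.28-fold in the combination (log2 0.35, SE 0.07, adjusted p = 0.00044). Treated groups overlapped, with a log2 difference of 0.07 that became -0.03 without combination replicate 1. KLF3 shares 4.8% of its exon bases with the antisense gene KLF3-AS1, which had 14, 25 and 21 fragments in all over the DMSO, MI-503 and combination libraries. Counting ignored strand and left out fragments that overlapped both genes.

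The SIN3A-binding group did not move together. KLF13 (chr15:31326835-31435665), described as a late activator of the chemokine gene CCL5 in T cells, had 11.9, 13.1, 11.7 and 13.5 CPM in DMSO, 19.8, 21.9, 22.6 and 22.1 CPM in MI-503, and 21.1, 22.4 and 22.6 CPM in the combination. Its rise over DMSO was 1.72-fold with MI-503 (log2 0.79, SE 0.07, adjusted p = 7.17e-08) and 1.75-fold in the combination (log2 0.81, SE 0.07, adjusted p = 3.21e-08). The treated groups overlapped throughout and differed by 0.02 on the log2 scale. Exons of KLF13 are annotated on 3 contigs of the assembly, and fragments that map to several places had been left out, so its level may be undercounted.

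KLF10 (chr8:102648777-102655725), a gene known for its induction by TGF-beta, had 18.9, 15.3, 18.1 and 17.1 CPM in DMSO, 19.1, 21.0, 23.3 and 21.5 CPM in MI-503, and 28.7, 26.8 and 26.6 CPM in the combination. DMSO and MI-503 nearly touched (18.9 and 19.1 CPM), while the combination stood clear of both. The fold over DMSO was 1.22 with MI-503 (log2 0.29, SE 0.07, adjusted p = 0.00337) and 1.58 in the combination (log2 0.66, SE 0.08, adjusted p = 1.01e-06). The combination exceeded MI-503 by 1.29-fold.

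KLF11 (chr2:10043550-10054836), the second TGF-beta-inducible member and closest relative of KLF10, went the other way. It had 11.3, 9.88, 12.5 and 11 CPM in DMSO, 9.95, 8.75, 10.2 and 11 CPM in MI-503, and 6.82, 7.12 and 6.85 CPM in the combination. The first 2 groups overlapped (log2 -0.17, 95% interval -0.36 to 0.02, adjusted p = 0.129). Combination libraries were below all others, at 0.621 times the DMSO level (log2 -0.69, SE 0.1, adjusted p = 1.12e-05) and 0.697 times the MI-503 level.

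KLF9 (chr9:70384597-70414657), a gene induced by glucocorticoids and thyroid hormone, was the one member not called in either tested contrast. Its levels were 11.7, 7.99, 9.25 and 10.8 CPM in DMSO, 11.8, 9.77, 12.6 and 11.3 CPM in MI-503, and 12.3, 8.48 and 7.70 CPM in the combination, so that all 3 groups overlapped. Log2 fold changes against DMSO were 0.18 with MI-503 (95% interval -0.12 to 0.48, adjusted p = 0.31) and -0.05 in the combination (-0.37 to 0.28, adjusted p = 0.805). The combination value turned to 0.05 without DMSO replicate 1, to 0.02 without combination replicate 2 and to 0.09 without combination replicate 4. Combination replicate 1 held the highest of the 3 values, and without it the difference from MI-503 went from -0.23 to -0.51. LOC101927086, which shares 14.2% of the exon bases of KLF9, had 1 fragment in all 11 libraries.

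**Figure D2:**
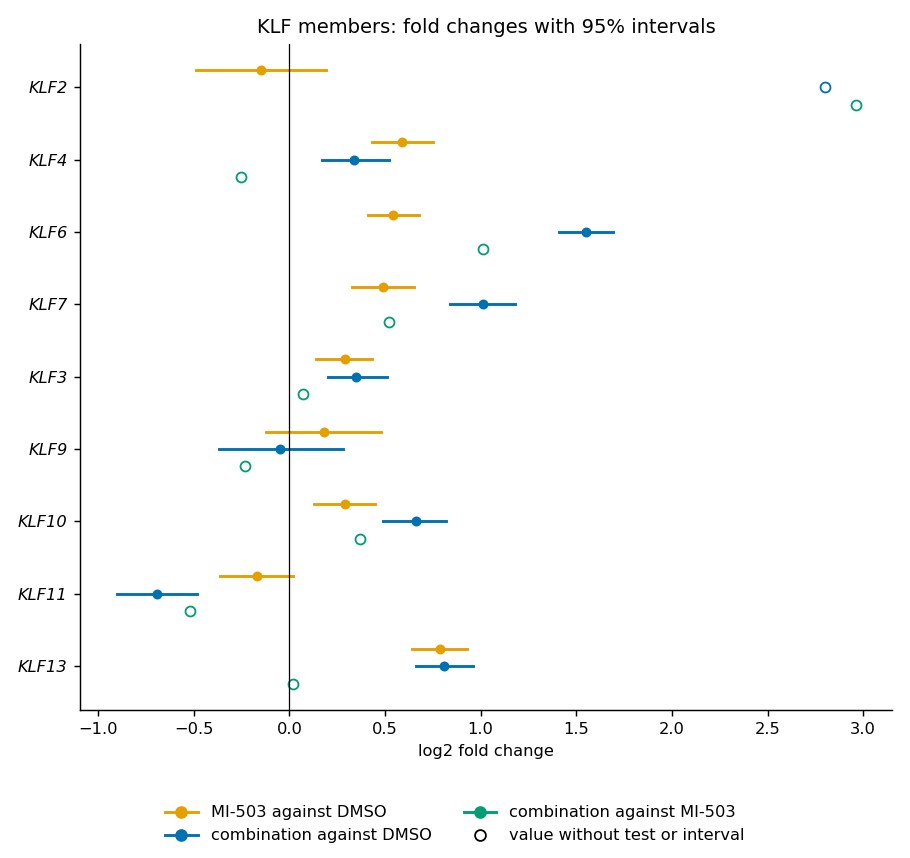
Log2 fold changes (x axis) of the 9 KLF members in 3 contrasts, with lines for 95% intervals of the edgeR fit. Open points have no test or interval. KLF6 and KLF7 lie further right in the combination than with MI-503 alone, KLF13 and KLF3 lie at about the same place in both, and KLF11 lies left of 0.

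Levels were compared between genes after division by exon length, as CPM per kb of exon. In DMSO the order was KLF6 (5.18 ± 0.184 SD, n = 4), KLF10 (5.07 ± 0.456) and KLF4 (4.97 ± 0.179), whose ranges overlapped, followed by KLF3 (3.16 ± 0.163), KLF2 (2.63 ± 0.431) and KLF11 (2.59 ± 0.248), each overlapping the next. KLF9 (1.91 ± 0.315), KLF7 (0.765 ± 0.031) and KLF13 (0.585 ± 0.0408) came last with no overlap between neighbors. The place of KLF13 is uncertain, because its length counts exons on 3 contigs of the assembly. KLF6 (7.53 ± 0.318) and KLF4 (7.48 ± 0.878) led in MI-503. There KLF2 (2.35 ± 0.195), KLF11 (2.32 ± 0.214) and KLF9 (2.18 ± 0.228) overlapped their neighbors.

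The combination changed this order at the top. KLF2 moved from the fifth place in both other groups to the first, at 18.4 ± 4.4 CPM per kb (SD, n = 3), with a range that overlapped that of KLF6 (15.1 ± 1.64). Below these came KLF10 (8.01 ± 0.345), KLF4 (6.3 ± 0.107) and KLF3 (4.02 ± 0.34), each without overlap with the next. KLF2 thus made up 9.75% of the summed level of the 9 genes in DMSO, 6.9% in MI-503 and 31.7% in the combination, on average over libraries. The sum itself was 25.2 to 27.8 CPM per kb in DMSO, 32.7 to 35.8 in MI-503 and 55.8 to 59.6 in the combination. Without KLF2 it was 22.9 to 24.9, 30.5 to 33.3 and 37.6 to 42.5, so the groups stayed apart. Exon length is that of all annotated exons joined, which understates genes that use short isoforms. KLF13 and KLF7 have the longest annotated exons (21431 and 17471 bases) and the lowest values. The length of KLF13 adds up its exons on 3 contigs, so its value per kb is understated and its last place is not established. Sums and shares given above include that value.

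**Figure D3:**
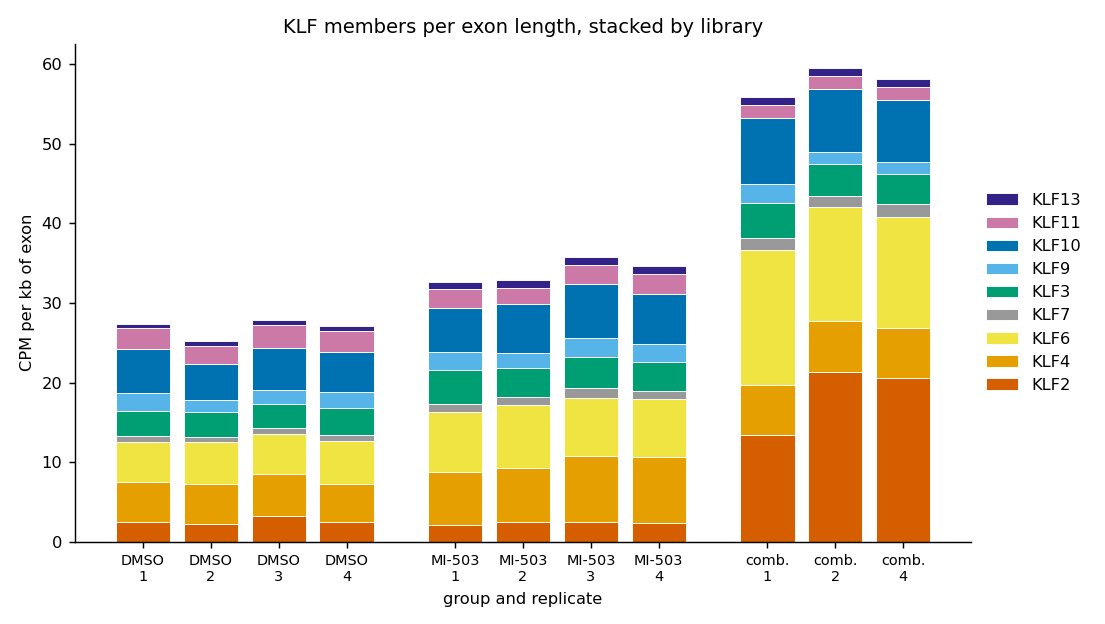
CPM per kb of exon (y axis, from 0) of the 9 KLF members, stacked in each library of the 3 groups. The stack reaches 25.2 to 27.8 in DMSO and 55.8 to 59.6 in the combination (comb.), where KLF2 and KLF6 form its largest parts.

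The rest of the KLF and SP family was looked at to see whether the whole family shared the rise. Of 18 such genes, 9 passed the filter on low counts (KLF5, KLF15, KLF16, SP1, SP2, SP3, SP4, SP5 and SP9). The other 9, KLF1, KLF8, KLF12, KLF14, KLF17, KLF18, SP6, SP7 and SP8, had at most 40 fragments summed over a group. MI-503 against DMSO had 1 of 9 called higher and 3 lower, where 22.0% and 29.3% of all genes were called. The combination against DMSO had 1 higher and 5 lower, beside 31.7% and 32.8% of all genes. Between the combination and MI-503, 3 were called lower and 0 higher by edgeR (1 higher at an unadjusted p under 0.05, 0 by DESeq2 and by limma-voom), beside 23.8% of all genes lower and 23.6% higher. With 9 genes, the counts for MI-503 against DMSO and for the combination against MI-503 lie near these background shares. Medians over the 9 were -0.03, -0.22 and -0.13 on the log2 scale, beside -0.028, 0.013 and 0.004 over all genes tested. Without combination replicate 1 the combination had 2 of these genes called higher against DMSO, and against MI-503 it had 1 higher and 4 lower. Without combination replicate 4 it had 5 lower than MI-503.

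SP9, best known from developing forebrain and limb, fell with MI-503. It had 40.5, 34.0, 43.0 and 37.0 CPM in DMSO, 11.6, 11, 11.6 and 12.2 CPM in MI-503, and 12.1, 9.73 and 9.86 CPM in the combination. The fall with MI-503 was to 0.299 times the DMSO level (log2 -1.74, SE 0.08, adjusted p = 8.09e-11), and the combination stood at 0.277 times (log2 -1.85, SE 0.09, adjusted p = 3.32e-11). Between the treated groups the log2 difference was -0.11 (95% interval -0.32 to 0.09, adjusted p = 0.359), and -0.26 without combination replicate 1 (adjusted p = 0.0328). SP5, a target of Wnt signaling, was barely present, with 7, 44 and 38 fragments over the DMSO, MI-503 and combination libraries, and was called higher in both treated groups (log2 2.43, adjusted p = 0.0018 and log2 2.46, adjusted p = 0.00147).

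KLF16, another SIN3A-binding member, was the most abundant family gene per length among those given here, at 48.9 to 54.5 CPM per kb in DMSO. It had 145, 152, 158 and 142 CPM in DMSO, 151, 152, 156 and 148 CPM in MI-503, and 96.7, 114 and 120 CPM in the combination. MI-503 left it within the DMSO range (log2 0.02, 95% interval -0.09 to 0.14, adjusted p = 0.749). Every combination library was lower than every other library, at 0.736 times DMSO (log2 -0.44, SE 0.06, adjusted p = 6.83e-06) and 0.724 times MI-503 (log2 -0.47, SE 0.06, adjusted p = 1.01e-05).

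The ubiquitous factors SP1, SP2 and SP3 shifted by small amounts. In the combination they stood at 0.89, 0.742 and 0.861 times DMSO (adjusted p = 0.00415, 6.3e-05 and 0.000471), and SP4 at 0.916 times (adjusted p = 0.272). With MI-503 alone SP2 fell (log2 -0.27, adjusted p = 0.00316), and SP3 was called lower at a log2 fold change of -0.11 (adjusted p = 0.031) that was lost under 13 of 18 alternative settings (adjusted p 0.0255 to 0.321). Against MI-503, SP1 was lower (log2 -0.13, adjusted p = 0.0232), though not without MI-503 replicate 1 (0.057) or 3 (0.0515). SP2 (log2 -0.16, adjusted p = 0.0767) passed when DMSO replicate 2 (0.0493) or combination replicate 4 (0.00898) was left out, and SP3 (log2 -0.1, adjusted p = 0.0726) passed without combination replicate 1 (0.00376) or 4 (0.0243).

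KLF15, a regulator of metabolism that shares 38.5% of its exon bases with LOC107986124, had 1.39, 1.76 and 2.12 CPM in the combination and 2.35 to 2.74 CPM in MI-503 (log2 -0.53, SE 0.17, adjusted p = 0.0174). Without combination replicate 1, its lowest library, the call was lost (log2 -0.38, adjusted p = 0.102). KLF5, an epithelial and myeloid factor, had 0.944 CPM in that same replicate and 1.91 and 2.01 CPM in replicates 2 and 4, beside 1.02 to 1.11 CPM in MI-503. Its log2 difference from MI-503 was 0.54 (adjusted p = 0.0801) with all libraries and 0.86 (adjusted p = 0.00187) without combination replicate 1, and against DMSO 0.15 (adjusted p = 0.611) and 0.51 (adjusted p = 0.0381).

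**Figure D4:**
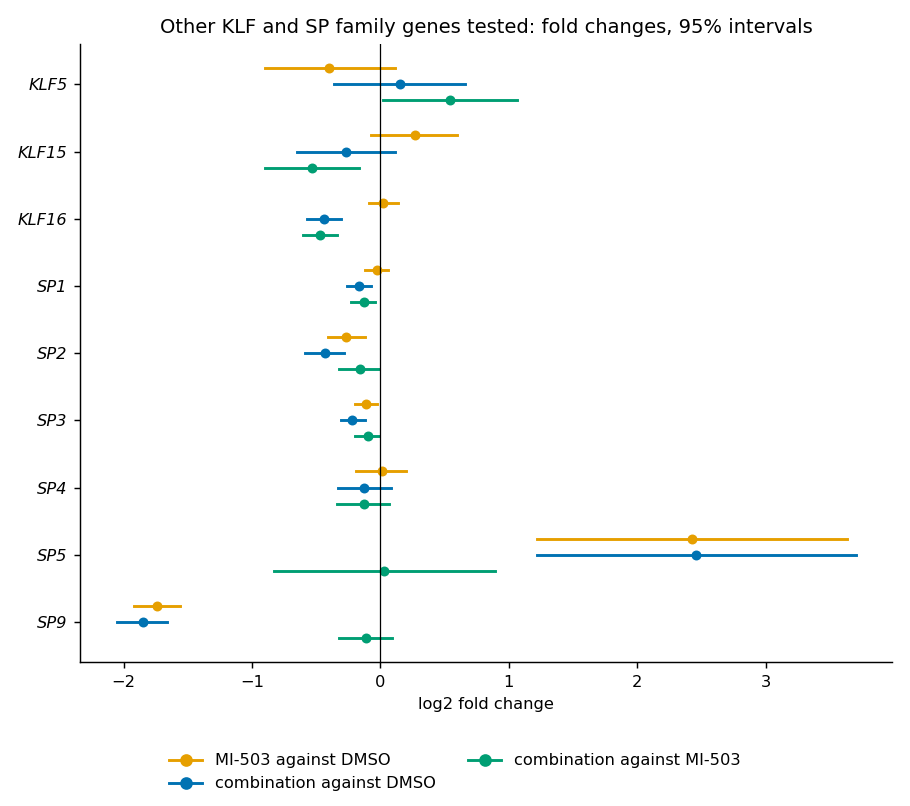
Log2 fold changes (x axis) of the 9 other KLF and SP family genes tested, in 3 contrasts, with lines for 95% intervals. SP9 lies near -1.74 and -1.85 against DMSO and near 0 between the treated groups, while KLF16 is near 0 with MI-503 alone and at -0.44 in the combination.

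Partner proteins were read next. Of 11 corepressors and coactivators that KLF factors recruit, all tested, MI-503 against DMSO had 1 called higher and 5 lower, and the combination against DMSO had 2 higher and 6 lower. Over all genes, 22.0% were higher and 29.3% lower with MI-503, and 31.7% higher and 32.8% lower in the combination. The list's median log2 fold changes were -0.09 and -0.27, beside -0.028 and 0.013 over all genes tested. Without combination replicate 2, 3 were called lower with MI-503, and 1 was called higher in the combination against DMSO. That last count was also 1 without DMSO replicate 1, 2 or 4. The 1 called higher with MI-503 became 0 without MI-503 replicate 1 and 2 without combination replicate 1. The corepressor NCOR1 (0.817 times DMSO, adjusted p = 1.28e-05) and the acetyltransferase EP300 (0.855 times, adjusted p = 4.02e-05) had the smallest adjusted p with MI-503. Between the combination and MI-503, 1 was called higher and 4 lower, beside 23.6% and 23.8% of all genes tested. The 4 lower became 6 without combination replicate 1, and 3 without DMSO replicate 3 or 4 or MI-503 replicate 3. The deacetylase HDAC2 had 224 to 240 CPM in MI-503 and 164 to 182 CPM in the combination (log2 -0.44, SE 0.04, adjusted p = 5.44e-07). SIN3B, a scaffold of the SIN3 complex, went up from 74.2 to 79.1 CPM to 98.6 to 108 CPM (log2 0.43, SE 0.05, adjusted p = 3.15e-06).

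Ubiquitin ligase components described for KLF proteins formed the next list. Of 7, MI-503 against DMSO had 0 called in either direction by edgeR (0 at an unadjusted p under 0.05, 0 by DESeq2 and by limma-voom). The combination against DMSO had 2 called higher and 1 lower, and the combination against MI-503 had 2 higher and 0 lower (1 lower at an unadjusted p under 0.05, 0 by DESeq2 and by limma-voom). Shares over all genes tested were 22.0% higher and 29.3% lower for MI-503 against DMSO. They were 31.7% and 32.8% for the combination against DMSO, and 23.6% and 23.8% against MI-503. With 7 genes, the counts called higher in the combination lie near these shares. FBXW7, a substrate receptor for KLF2 and KLF5, was at 0.836 times DMSO in the combination (adjusted p = 0.00139). BTRC, the receptor beta-TrCP, was 1.19-fold higher than with MI-503 alone (log2 0.25, adjusted p = 0.00794). FBXO32, also called atrogin-1, had 2.73 to 3.32 CPM in MI-503 and 3.78, 6.17 and 4.91 CPM in the combination (log2 0.65, adjusted p = 0.00531), and was not called without combination replicate 2 (log2 0.44, adjusted p = 0.0547). SMURF1, a ligase for KLF2, was not called in any contrast (adjusted p = 0.105, 0.725 and 0.249). Counts this small moved by 1 gene with single libraries. MI-503 against DMSO had 1 called higher without combination replicate 1. The combination had 1 called higher than DMSO without combination replicate 2 or DMSO replicate 2 or 3. Against MI-503 it had 1 higher without combination replicate 2, and 1 lower without MI-503 replicate 2 or combination replicate 1 or 2.

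The ERK5 and MEF2 arm is known to switch on KLF2 and KLF4. Of its 9 genes, 4 were called higher and 2 lower with MI-503, and 6 higher and 2 lower in the combination against DMSO. The combination against MI-503 had 4 higher and 1 lower, with 3 lower without combination replicate 1 and 2 without replicate 4. Background shares were 22.0% of all genes tested higher and 29.3% lower with MI-503. For the combination they were 31.7% and 32.8% against DMSO, and 23.6% and 23.8% against MI-503. The 4 higher with MI-503 became 6 without combination replicate 1 or 4. The 6 higher in the combination against DMSO included HDAC7, a MEF2 corepressor named here after its values were seen (log2 0.18, adjusted p = 0.047), whose call was lost under 12 of 18 alternatives (adjusted p 0.000707 to 0.335 over all 18), among them leaving out any single DMSO or MI-503 library. The kinase genes MAP3K2, MAP3K3 and MAPK7 were called higher in each of these contrasts. MAP3K2, at the top of the cascade, had 34.1 to 38.5 CPM in DMSO, 40.1 to 43.2 CPM in MI-503 and 54.4 to 59.5 CPM in the combination (log2 0.43 over MI-503, SE 0.05, adjusted p = 4.99e-06). MAPK7, which encodes ERK5, had 20.0 to 20.8, 22.8 to 24.0 and 27.6 to 30.0 CPM (log2 0.33 over MI-503, SE 0.05, adjusted p = 0.000115). MAP3K3 was 1.37-fold higher than DMSO with MI-503 (adjusted p = 7.94e-07) and 1.53-fold higher in the combination (adjusted p = 1.32e-08).

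MEF2C, a MEF2 factor and known KMT2A-fusion target, fell. It had 190 to 214 CPM in DMSO, 48.5 to 53.5 CPM in MI-503, and 44.2, 36.2 and 31.7 CPM in the combination. The level with MI-503 was 0.255 times DMSO (log2 -1.97, SE 0.07, adjusted p = 5.12e-12), and the combination was at 0.724 times MI-503 (log2 -0.47, SE 0.08, adjusted p = 0.000202). MEF2C was thus lowest in the combination libraries, where KLF2 was highest. Whether their levels are related was not tested. The list's other MEF2 factors, MEF2D and MEF2A, named here after their values were seen, changed less. MEF2D had means of 850, 711 and 657 CPM in DMSO, MI-503 and the combination. MEF2A had means of 29.4, 29.4 and 27.9 CPM.

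Of 8 genes of the TGF-beta and SMAD arm, which induces KLF10 and KLF11, MI-503 against DMSO had 5 called higher and 0 lower by edgeR (1 lower at an unadjusted p under 0.05, 0 by DESeq2 and by limma-voom). The combination against DMSO had 6 higher and 0 lower (0 at an unadjusted p under 0.05, 0 by DESeq2 and by limma-voom), and against MI-503 it had 2 higher and 3 lower. The 3 lower became 1 without MI-503 replicate 3 and 5 without combination replicate 4. Among all genes tested, 22.0% were called higher and 29.3% lower with MI-503. In the combination these shares were 31.7% and 32.8% against DMSO, and 23.6% and 23.8% against MI-503. SMAD3, a receptor-activated transcription factor, had 22.5 to 25.9 CPM in DMSO, 47.4 to 49.5 CPM in MI-503 and 32.2 to 38.5 CPM in the combination. It rose 2.04-fold with MI-503 (adjusted p = 8.66e-10) and was lower again in the combination than in MI-503 (log2 -0.46, SE 0.06, adjusted p = 1.82e-05). TGFB1, the ligand, rose 1.36-fold with MI-503 (adjusted p = 6.43e-07).

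Both inhibitors of this arm on the list stood above DMSO in the combination. SKIL, a SMAD corepressor, had 10.7 to 14.1 CPM in DMSO, 14.2 to 16.4 CPM in MI-503, and 23.8, 36.6 and 35.3 CPM in the combination (log2 1.05 over MI-503, SE 0.12, adjusted p = 3.01e-06). With MI-503 alone SKIL was not called (log2 0.29, adjusted p = 0.0602), and leaving out DMSO replicate 1 (0.0383) or any of the combination replicates 1 (0.000689), 2 (0.0306) and 4 (0.0275) gave a call. SMAD7, an inhibitory SMAD, was 1.94-fold above DMSO with MI-503 (adjusted p = 5.98e-06) and 2.38-fold in the combination (adjusted p = 1.77e-07). Its call over MI-503 (log2 0.3, adjusted p = 0.0494) depended on single libraries, since leaving out replicate 1 or 2 of DMSO, 1 or 4 of MI-503, or 2 or 4 of the combination gave an adjusted p of 0.0511 to 0.278 and left SKIL as the 1 gene called higher. KLF10 and KLF11, both known to be induced by TGF-beta, thus stood on opposite sides in the combination, at 1.58 and 0.621 times DMSO.

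Around KLF9, the 6 genes of the glucocorticoid receptor list were called 3 higher and 3 lower with MI-503, 2 higher and 2 lower in the combination against DMSO, and 2 higher and 3 lower in the combination against MI-503. Beside these stand 22.0% of all genes tested higher and 29.3% lower with MI-503. For the combination the shares were 31.7% and 32.8% against DMSO, near the list's counts, and 23.6% and 23.8% against MI-503. The genes lower with MI-503 included DUSP1, a phosphatase gene named here after its values were seen (log2 -0.31, adjusted p = 0.0399), whose call was lost under 13 of 18 alternatives (adjusted p 0.0383 to 0.13 over all 18), among them leaving out any single DMSO library. TSC22D3, the glucocorticoid-induced leucine zipper gene, had 9.96 to 13.1 CPM in DMSO, 15.4 to 19.1 CPM in MI-503, and 46.5 to 58.2 CPM in the combination (log2 1.56 over MI-503, SE 0.09, adjusted p = 6.58e-10). The receptor gene NR3C1 fell from 91.1 to 96.9 CPM to 81.6 to 83.4 CPM with MI-503 (adjusted p = 0.000499), and to 60.2 to 67.1 CPM in the combination (adjusted p = 7.74e-09 against DMSO). FKBP5 and ZBTB16 rose with MI-503 (1.29-fold, adjusted p = 1.77e-05 and 1.89-fold, adjusted p = 2.28e-06), and both were lower in the combination than in MI-503 (log2 -0.36, adjusted p = 7.08e-05 and log2 -0.41, adjusted p = 0.0054). KLF9 itself was not called against DMSO in either treated group.

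Genes described as regulated by KLF2 or KLF4 came from T cells, endothelium and monocytes, and 7 of 10 passed the filter. S1PR1, a textbook target of KLF2 in T cells, did not pass and had at most 1 fragment summed over any group, and CD14 did not pass either. MI-503 against DMSO had 2 of 7 called higher and 3 lower, with 4 higher without combination replicate 1. The combination against DMSO and the combination against MI-503 each had 5 higher and 1 lower, with medians of 1.28 and 0.98 on the log2 scale. All genes tested had medians of 0.013 and 0.004 there. Their shares called higher and lower were 31.7% and 32.8% against DMSO, and 23.6% and 23.8% against MI-503. With MI-503 alone these shares were 22.0% and 29.3%. THBD, thrombomodulin, an anticoagulant receptor raised by KLF2 in endothelium, had 41.2 to 47.4 CPM in DMSO, 69.5 to 75.2 CPM in MI-503, and 114, 147 and 167 CPM in the combination. It rose 1.65-fold with MI-503 (adjusted p = 3.15e-06) and a further 1.97-fold in the combination (log2 0.98, SE 0.09, adjusted p = 1.71e-07). Combination replicate 1, the lowest in KLF2, was also the lowest in THBD.

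ITGB7, an integrin gene that KLF2 is known to repress in T cells, rose as well, from 2.51 to 4.69 CPM in DMSO to 9.13 to 11.4 CPM in MI-503 (3.08-fold, adjusted p = 1.05e-07) and to 24.0, 21.7 and 19.9 CPM in the combination (log2 1.11 over MI-503, adjusted p = 1.8e-06). It shares 51.8% of its exon bases with ZNF740, so its level rests on the remaining exons. ASS1, argininosuccinate synthase, which endothelial KLF2 is known to raise, fell from 627 to 677 CPM in DMSO to 512 to 548 CPM with MI-503 (adjusted p = 3.06e-05) and to 324 to 373 CPM in the combination (log2 -0.63 against MI-503, adjusted p = 5.05e-08). CDKN1A, the cell cycle inhibitor p21 and a KLF4 target, went from 141 to 149 CPM in DMSO down to 101 to 112 CPM with MI-503 (log2 -0.43, adjusted p = 3.08e-06) and stood at 145 to 171 CPM in the combination (log2 0.59 over MI-503, adjusted p = 2.53e-07). The list thus held genes that moved with and against the direction described for KLF2.

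**Figure D5:**
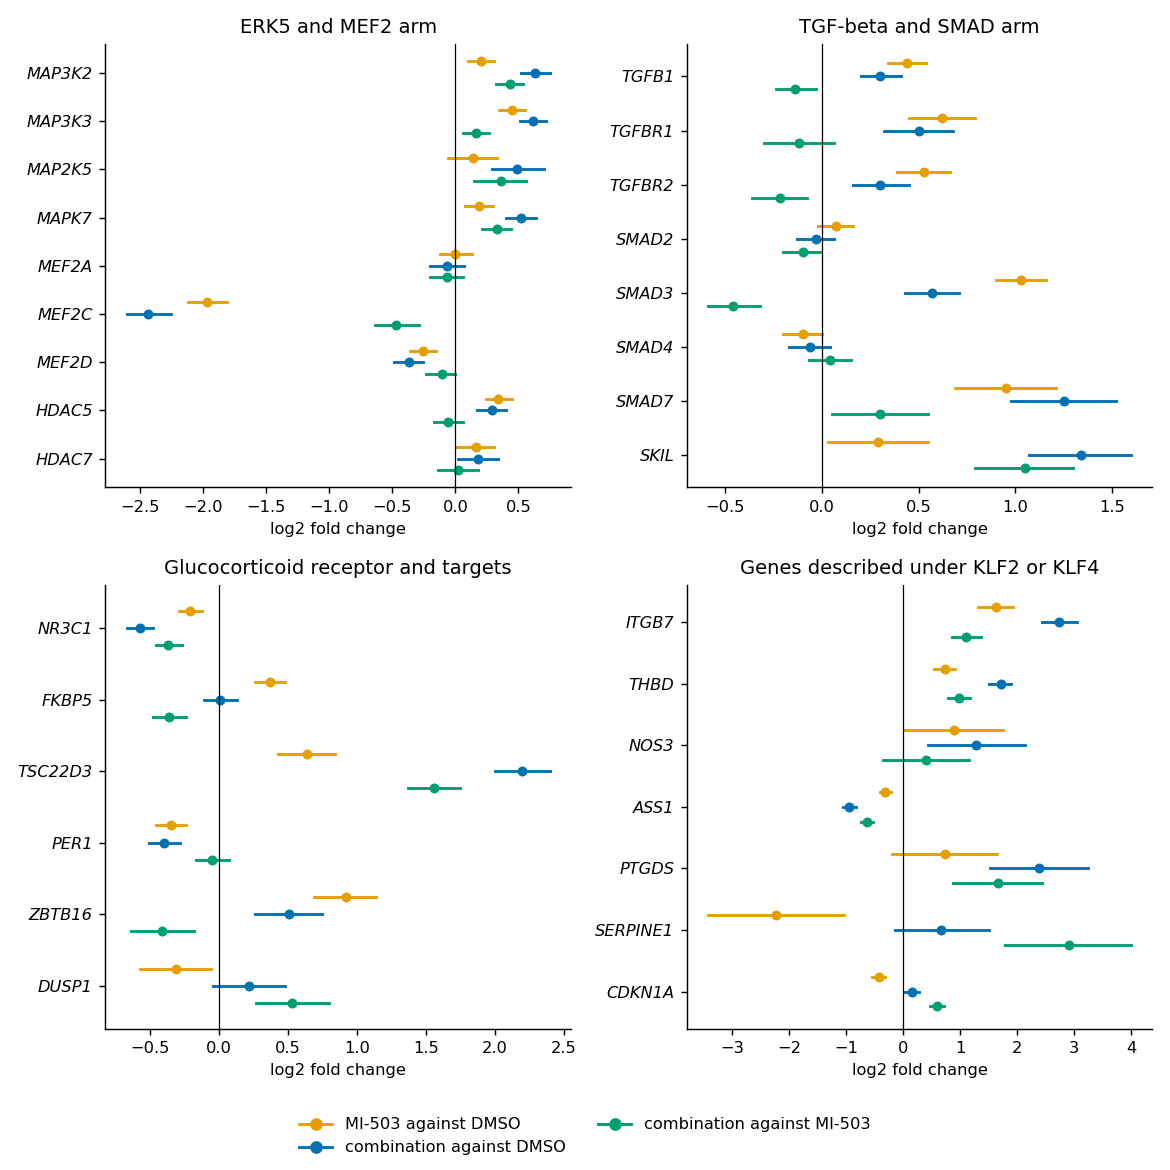
Log2 fold changes (x axis) of the tested genes of 4 lists around the KLFs in 3 contrasts, with lines for 95% intervals. MAP3K2, MAP3K3 and MAPK7 lie right of 0 while MEF2C lies at -1.97 with MI-503, and TSC22D3 and SKIL are furthest right in the combination within their lists.

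Across the 11 libraries, the log2 levels of the members varied together in part, which is a description over libraries that share 3 treatments. Pearson's r was 0.94 between KLF6 and KLF7, 0.95 between KLF7 and KLF10, -0.94 between KLF6 and KLF11, and 0.06 between KLF2 and KLF4. The 5 genes most like KLF2 among the same 10041 genes were NPLOC4, ACADVL, PPP1R15A, GOLGA3 and ALKBH6, with r from 0.989 to 0.994. NPLOC4, a cofactor of the p97 segregase that delivers ubiquitinated proteins to the proteasome, had means of 137 ± 7.67 (SD, n = 4), 129 ± 7.38 (n = 4) and 354 ± 23.2 CPM (n = 3) in DMSO, MI-503 and the combination. PPP1R15A, the stress-induced phosphatase subunit GADD34, had 19.7 ± 1.43, 20.1 ± 0.662 and 45.3 ± 3.72 CPM. These genes were picked for their likeness to KLF2, so their flat course with MI-503 alone and rise in the combination follow from that choice. None of the 5 came near the fold of KLF2, at 0.5 to 1.47 on the log2 scale over MI-503.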

How the data were processed

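RNA sequencing of MOLM-13 cells gave 11 libraries in 3 groups, assigned from the labels. The deposited tables hold unnormalized counts, 1 value per gene and library. Per the file headers, the authors counted fragments over exons of the hg38 RefSeq annotation with featureCounts 2.0.1, unstranded, leaving out fragments with several places or several genes. The submitters' processing notes name Trimmomatic 0.39 and STAR 2.7.10a. The deposited tables of differential expression (DESeq2 fold changes and p-values of the authors) were not used.

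Counts were analyzed with edgeR 4.0.16 in R 4.3.3. filterByExpr (minimum count 10) kept 14683 genes, all 11 libraries entered 1 model with TMM factors, and contrasts were tested two-sided with glmQLFTest, Benjamini-Hochberg adjusted over all genes tested. A call was an adjusted p under 0.05. CPM per kb used the exon length in the files. DESeq2 1.42.0 and limma 3.58.1, other scaling factors and filters, a replicate block and leaving out each library were alternatives.

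Members and gene lists were chosen with earlier results of these data known. Named were all members, all other KLF and SP genes, from every further list the 2 genes lowest in adjusted p per contrast, and the 5 genes most correlated with KLF2. KLF3-AS1 and LOC101927086 share exons with members, as does MIR2355 (0.5% of KLF7), which had no fragment. S1PR1 and CD14 were named after their counts were seen, and 1 further gene of that list is not reported here. Marker genes came from fixed lists.

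Same-numbered MI-503 and combination libraries deviated together weakly (r = 0.141 to 0.211 in 3 of 3 pairs). Differently numbered pairs ran from -0.274 (MI-503 replicate 1, combination replicate 4) to 0.269 (MI-503 replicate 3, combination replicate 4). The numbers are therefore not shown to pair these libraries, and the main fit used no pairing. In the contrasts with DMSO, same-numbered pairs had r = -0.252 to 0.285 for MI-503 and -0.0601 to 0.11 for the combination.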

Additional observations from a re-analysis of the deposited data

Results flagged for a closer look

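The lowest and the highest library of each group of 4 were compared with the rest for the 9 members and the 9 other KLF and SP genes tested. In 0 of 36 groups did a library stand apart by Dixon's criterion at the 95% level. The combination, with 3 libraries, is too small for this criterion.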

How the results depend on the processing

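The calls of KLF members kept their direction and side of the threshold under all 18 alternatives in both contrasts with DMSO: 6 higher and 0 lower for MI-503, and 6 higher and 1 lower for the combination, the replicate block included. With the replicate block, KLF2 stood at 3.02 (log2) over MI-503, against 2.96 without it, and the block changed no call of a member. Leaving out 1 library gave 2.81 to 3.12 for KLF2 over MI-503. Values near 0 changed sign without changing a call: KLF9 in the combination against DMSO went to 0.02 with upper-quartile factors and ran from -0.29 to 0.09 over libraries left out (0.05, 0.02 and 0.09 without DMSO replicate 1, combination replicate 2 and combination replicate 4), KLF3 in the combination against MI-503 went to -0.03 without combination replicate 1 (range -0.03 to 0.11), and KLF13 went to -0.01, -0.03 and -0.04 without MI-503 replicate 1, combination replicate 2 and combination replicate 4. The number of other KLF and SP genes called with MI-503 was 4, and 2 with the stricter filter of 50 counts, which leaves out SP5 and under which SP3 was not called (adjusted p = 0.0701). Over libraries left out it was 3 to 4. In the combination against MI-503 it was 3, and 2 to 5 over libraries left out, with 5 without combination replicate 1 or 4, and in the combination against DMSO 6, and 6 to 7. TGF-beta arm genes called lower in the combination against MI-503 were 3, 2 with the replicate block and 1 to 5 over libraries left out (1 without MI-503 replicate 3, 5 without combination replicate 4). SMAD7 was not called in that contrast under 9 of 18 alternatives, nor was MAP3K3 (log2 0.16, adjusted p = 0.0117) when combination replicate 2 (0.0633) or 4 (0.135) was left out. CDKN1A in the combination against DMSO (log2 0.16, adjusted p = 0.0182) was not called when combination replicate 2 (0.106) or 4 (0.101) was left out. The cause was not tested. Depth was ample for the members, and it limits SP5 and the 9 family genes that were not tested.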
